A study of Homo sapiens with 24 samples.

Results

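The 47 genes described here encode proteins that drive or carry out mitosis: the proliferation marker Ki-67, the mitotic cyclins and kinases, the spindle checkpoint, the kinesin motors, the outer kinetochore, the spindle and cytokinesis factors, and the transcription factors FOXM1 and MYBL2. They were taken by gene name with no threshold on any value, and all 47 were found among the 48162 genes of the deposited RNA-seq tables. The study asked how extracellular vesicles (EVs, membrane particles released by cells) from pancreatic cancer cells act on 2 pancreas lines that the labels call normal, hTERT-HPNE and HPDE-H6c7, referred to as HPNE and HPDE. hTERT-HPNE was immortalised with telomerase, and HPDE-H6c7 with papillomavirus oncogenes that inactivate the p53 and RB proteins, so both are long-lived cultures. Cells of each line were kept for 24 h in serum-free medium in 1 of 4 ways, with 3 libraries each: fresh medium (untreated), 1e10 EVs per well from PANC-1 cells, 1e10 EVs per well from PPCL-68 cells, or the medium left over from EV isolation (residual medium), which served as the negative control. The labels call the libraries biological triplicates, and nothing states whether they came from separate cultures, so the tests measure the spread between these libraries.

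A dividing cell makes most of these transcripts late in the cell cycle. Complexes of the MuvB core bind their promoters through a cell cycle genes homology region (CHR): with the RB-like proteins p107 and p130 they form DREAM, which keeps the genes off in resting cells, and with B-MYB (the product of MYBL2) and FOXM1 they turn the genes on in G2 and mitosis. NF-Y, which binds CCAAT boxes, cooperates in this activation. After transcription, cyclin B and CDK1 start mitosis, the checkpoint kinases delay anaphase until chromosomes are attached, and CDC20 then activates the anaphase-promoting complex. The summed level of these genes is widely used as a measure of how much a culture divides.

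RefSeq promoter windows (build GRCh38.p14, 250 bases before to 50 after the annotated start) were at hand for 40 of the 47 members. A CHR, searched as TTTGAA or TTCGAA on either strand, was present in 30 of the 40 windows (75.0%), against 16.6% of all 27305 windows of the same length. A CCAAT box, searched as CCAAT on either strand, was present in 31 (77.5%), against 35.7% of all windows. Both were found in 25 members (62.5%), against 6.58% of all windows, and 2 or more CCAAT boxes in 19 (47.5%), against 11.3%. CDC25C, KIF2C, CENPE and MYBL2 had neither of these letter strings in their windows. A match is a description of the sequence and not a measured binding site. The 6 windows below are shown because they hold both motifs: they are the first 6 of the 11, among 23 genes taken to represent the roles, whose window does. Capitals mark each CHR and each CCAAT box as it reads on the printed strand, so a reverse match appears as TTCAAA or ATTGG. The windows lie as follows: MKI67 at chr10:128126374-128126673 on the minus strand, TOP2A at chr17:40417847-40418146 on the minus strand, CDK1 at chr10:60778081-60778380 on the plus strand, CDC20 at chr1:43358731-43359030 on the plus strand, PLK1 at chr16:23678639-23678938 on the plus strand and BUB1 at chr2:110678014-110678313 on the minus strand.
MKI67: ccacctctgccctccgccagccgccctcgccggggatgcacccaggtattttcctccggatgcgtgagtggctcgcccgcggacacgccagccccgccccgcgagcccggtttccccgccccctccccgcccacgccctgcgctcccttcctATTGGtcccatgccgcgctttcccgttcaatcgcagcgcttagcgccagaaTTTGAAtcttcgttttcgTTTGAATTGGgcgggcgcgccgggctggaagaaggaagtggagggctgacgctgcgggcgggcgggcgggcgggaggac
TOP2A: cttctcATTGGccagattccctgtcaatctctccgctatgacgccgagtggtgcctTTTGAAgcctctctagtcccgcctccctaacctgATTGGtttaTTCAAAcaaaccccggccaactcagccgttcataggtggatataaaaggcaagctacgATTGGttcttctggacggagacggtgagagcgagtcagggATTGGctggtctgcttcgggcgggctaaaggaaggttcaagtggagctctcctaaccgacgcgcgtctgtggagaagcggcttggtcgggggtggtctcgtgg
CDK1: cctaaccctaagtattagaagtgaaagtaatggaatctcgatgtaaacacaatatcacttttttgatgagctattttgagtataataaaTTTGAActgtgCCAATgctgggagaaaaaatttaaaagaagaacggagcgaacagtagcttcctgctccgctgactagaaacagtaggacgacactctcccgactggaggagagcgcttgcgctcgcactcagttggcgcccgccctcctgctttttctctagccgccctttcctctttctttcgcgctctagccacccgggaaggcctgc
CDC20: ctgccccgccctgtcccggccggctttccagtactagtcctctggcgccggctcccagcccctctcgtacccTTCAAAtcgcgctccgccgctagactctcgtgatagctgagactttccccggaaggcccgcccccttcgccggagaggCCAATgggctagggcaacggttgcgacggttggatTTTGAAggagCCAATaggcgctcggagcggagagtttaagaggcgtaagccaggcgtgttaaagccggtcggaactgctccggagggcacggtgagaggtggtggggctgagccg
PLK1: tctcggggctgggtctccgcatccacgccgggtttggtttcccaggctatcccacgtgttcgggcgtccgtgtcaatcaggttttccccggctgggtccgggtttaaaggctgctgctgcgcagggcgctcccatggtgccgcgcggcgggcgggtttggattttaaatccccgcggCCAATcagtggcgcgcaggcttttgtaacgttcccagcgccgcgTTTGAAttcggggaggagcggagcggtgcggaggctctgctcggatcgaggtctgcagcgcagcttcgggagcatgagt
BUB1: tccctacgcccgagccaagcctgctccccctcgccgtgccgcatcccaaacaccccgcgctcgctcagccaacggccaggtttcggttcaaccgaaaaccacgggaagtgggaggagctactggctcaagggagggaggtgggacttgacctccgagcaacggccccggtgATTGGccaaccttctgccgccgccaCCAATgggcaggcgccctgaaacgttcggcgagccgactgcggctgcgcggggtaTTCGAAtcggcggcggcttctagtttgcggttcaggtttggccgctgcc
In the MKI67 window 1 CHR runs into a CCAAT box, so the capitals there form a single stretch. TOP2A had 2 CHRs and 4 CCAAT boxes, the most boxes of the 6 windows printed, and CDK1 and PLK1 had 1 of each. BUB1 was the window printed with the TTCGAA form.

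Values are FPKM, reads per gene scaled to gene length and to the library's total. Reads assigned to genes ran from 29209142 to 46490312 per library, and every member had at least 32 reads in every library, so none was near the limit of 3 reads taken as the counting floor. The cell identity genes differed between the lines: the duct and epithelial markers (EPCAM, CDH1, SOX9 and 4 keratins) summed to 6.62 to 15.7 FPKM in HPNE libraries against 1445 to 3529 in HPDE libraries, and the mesenchymal markers to 9243 to 14430 against 78.8 to 152. HPNE thus had far less transcript of the duct markers than HPDE, although the label calls it a normal pancreas cell. EPCAM and CDH1 were at most 0.162 and 0.112 FPKM in HPNE, KRT19 0.905 and KRT7 1.57. KRT18 was at 3.21 to 5.13 FPKM there, and KRT8 and SOX9 reached 6.28 and 3.54. Immune, endothelial, acinar and endocrine markers summed to 0.225 FPKM or less in every library. In HPNE, 4 libraries lay apart from the other 2 of their group over all genes: untreated replicate 3, residual medium replicate 3, PANC-1 EV replicate 1 and PPCL-68 EV replicate 1, with log2 distances to the other 2 of 0.311 to 0.460 against 0.139 to 0.164 between those 2. HPDE replicates lay within 0.133 to 0.175 of each other.

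**Figure D1:**
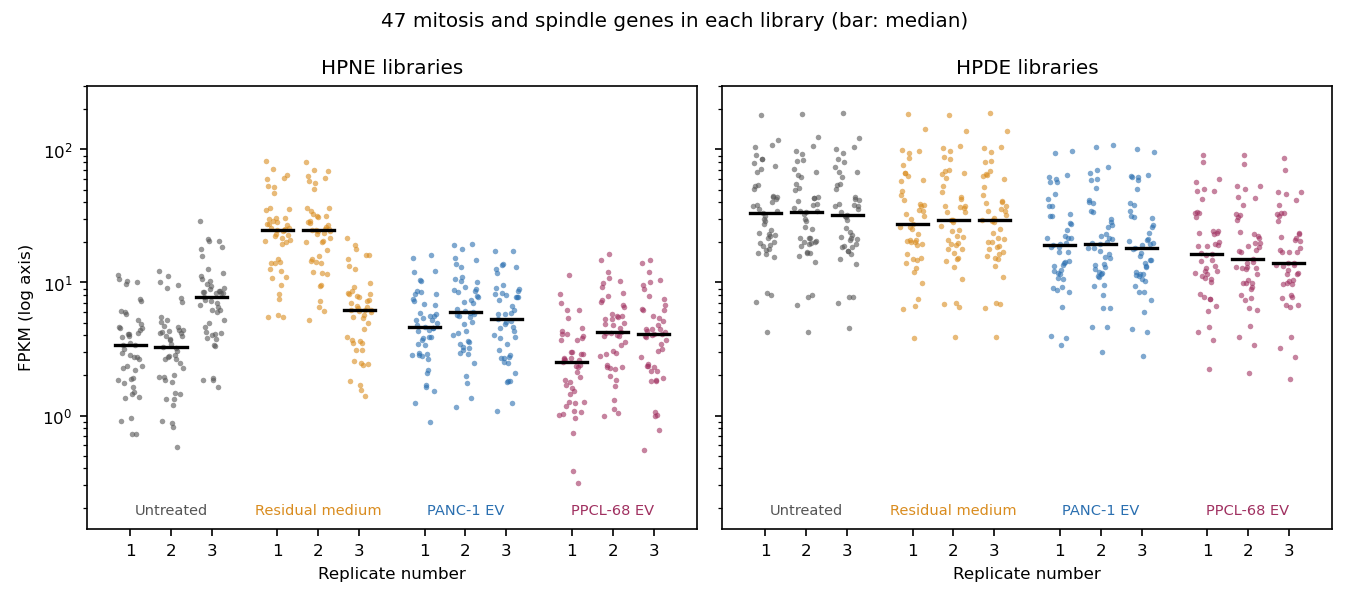
Level of the 47 mitosis and spindle genes in each of the 24 libraries, by cell line and treatment, in FPKM on a log axis, with 1 point per gene and a bar at the library's median. The HPDE medians step down from untreated and residual medium to the EV groups, whereas in HPNE 2 of the 3 residual-medium libraries, at 24.8 and 24.6 FPKM, sit far above the third, at 6.23 FPKM.

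Without EVs or residual medium, the 2 lines differed in the level of every member. Untreated HPDE exceeded untreated HPNE in 47 of 47 members by limma (Benjamini-Hochberg adjusted p under 0.05 over all genes tested), and in 47 of 47 the libraries of the lines did not overlap, against 57.7% of all genes higher without overlap. The background was wide, since 83.8% of all genes were called between the lines and 56.0% were higher in HPDE. The median member was 2.68 higher in HPDE on the log2(FPKM + 1) scale (2.34 when libraries were scaled by size factors, which moved the median of all genes from 0.38 to 0.07). The largest difference was in MYBL2, whose product activates late cell cycle genes. MYBL2 stood at 2.34, 2.28 and 5.22 FPKM in the untreated HPNE libraries and at 118, 125 and 122 FPKM in the untreated HPDE libraries. The smallest was in KIF15, a motor that slides spindle microtubules apart, with 0.720, 0.824 and 1.90 FPKM against 4.28, 4.22 and 4.54 FPKM. The order of the members also differed by line: CDC20 led in untreated HPDE at 185 ± 2.93 FPKM (SD, n = 3) and KIF15 was lowest there at 4.35 ± 0.170, whereas TOP2A led in untreated HPNE at 17.5 ± 9.85 and BIRC5, encoding survivin, was lowest at 0.981 ± 0.576. HPDE replicates were tight, with a median coefficient of variation over members of 3.07% in untreated cells. HPNE replicates were loose, at 51.3%.

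In HPDE cells both EV treatments were followed by lower levels of the mitosis genes. The library medians of the 47 members were 33.5, 33.6 and 32.2 FPKM in untreated cells, 27.6, 29.4 and 29.4 in residual medium, 19.2, 19.4 and 18.0 with PANC-1 EVs and 16.5, 14.9 and 14.1 with PPCL-68 EVs. The 4 groups did not overlap in this median. With PANC-1 EVs 43 of the 47 members were lower than in residual medium and 0 were higher by limma, where 63.3% of all genes were called and 35.1% were lower. The median member difference was -0.57 on the log2(FPKM + 1) scale, beside -0.04 over all genes tested. With PPCL-68 EVs 47 of 47 were lower, with a median of -0.81 (-0.03 over all genes), where 67.7% of all genes were called and 36.4% were lower. The libraries of the EV and residual-medium groups did not overlap in 44 members with PANC-1 EVs, against 36.9% of all genes, and in 47 with PPCL-68 EVs, against 37.3%. In mean FPKM the median member stood 1.503-fold lower with PANC-1 EVs and 1.86-fold lower with PPCL-68 EVs. The residual-medium libraries are shared by the 2 comparisons. In these bulk libraries, fewer dividing cells and less transcript per dividing cell cannot be told apart. Mitochondrial transcripts were also lower with EVs, 0.362 to 0.775% of reads against 0.872 to 1.25% in the HPDE control libraries. The 7 duct and epithelial markers moved too: their sum was 2786 to 3031 FPKM in untreated cells, 3152 to 3529 in residual medium, 1563 to 1824 with PANC-1 EVs and 1445 to 1459 with PPCL-68 EVs. The part of either in the result was not tested.

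Among the markers of proliferation, MKI67, the gene of the Ki-67 antigen (chr10:129894923-129924649 in hg19), stood at 26.3, 26.5 and 29.4 FPKM in residual medium, 21.5, 18.2 and 20.5 with PANC-1 EVs and 11.8, 13.1 and 13.6 with PPCL-68 EVs. The 3 groups did not overlap. The differences from residual medium were -0.43 ± 0.07 SE, adjusted p = 5.3e-05 and -1.04 ± 0.07 SE, adjusted p = 5.2e-09. TOP2A, the topoisomerase that untangles chromosomes, was at 57.7, 65.4 and 63.2 FPKM in residual medium, 42.8, 41.4 and 39.7 with PANC-1 EVs and 33.5, 32.8 and 32.7 with PPCL-68 EVs, again with no overlap.

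Of the 5 genes of the mitotic trigger (CCNA2, CCNB1, CCNB2, CDK1 and the phosphatase gene CDC25C), all fell with each EV type. CCNB1, encoding cyclin B1, went from 98.5, 103 and 103 FPKM in residual medium to 61.8, 66.5 and 63.1 with PANC-1 EVs and 56.6, 53.0 and 47.9 with PPCL-68 EVs. CDK1, its kinase partner, was at 76.3, 87.4 and 80.9 FPKM in residual medium, 56.8, 58.9 and 62.5 with PANC-1 EVs and 49.1, 43.9 and 38.2 with PPCL-68 EVs. Every EV library of both genes lay below every residual-medium library. The median differences of these 5 genes were -0.50 with PANC-1 EVs and -0.66 with PPCL-68 EVs, and those of the 4 mitotic kinases, all of which fell, were -0.88 and -1.05. PLK1, the kinase that matures centrosomes, fell from 41.4, 37.8 and 39.5 FPKM to 18.3, 19.9 and 17.9 with PANC-1 EVs and 18.9, 17.4 and 17.5 with PPCL-68 EVs. The PLK1 values of the 2 EV groups overlapped. AURKB, the kinase of the chromosomal passenger complex, had the largest fall of all members with PPCL-68 EVs on the log2(FPKM + 1) scale, at -1.43 ± 0.05 SE, adjusted p = 1.1e-11. Its levels were 66.1, 61.3 and 64.5 FPKM in residual medium, 31.6, 33.8 and 30.9 with PANC-1 EVs and 23.6, 23.8 and 21.9 with PPCL-68 EVs. AURKA, the spindle pole kinase, fell by 0.78 with PANC-1 EVs and fell by 1.00 with PPCL-68 EVs (log2).

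All 4 spindle checkpoint genes fell with both EV types. BUB1, a checkpoint kinase at the kinetochore, was at 32.6, 34.1 and 34.3 FPKM in residual medium, 19.2, 18.1 and 18.0 with PANC-1 EVs and 16.6, 16.8 and 16.9 with PPCL-68 EVs. MAD2L1, whose product restrains CDC20, was at 63.5, 70.1 and 68.3 FPKM in residual medium, 46.2, 51.1 and 50.2 with PANC-1 EVs and 42.7, 38.4 and 33.5 with PPCL-68 EVs. CDC20 itself, the most abundant member, went from 184, 180.1 and 188 FPKM to 94.0, 105 and 101 with PANC-1 EVs and 90.5, 91.5 and 86.8 with PPCL-68 EVs. Each of these 3 genes kept all EV libraries below all residual-medium libraries. UBE2C, the ubiquitin-conjugating enzyme that works with CDC20, behaved otherwise than most members in 1 respect, the order of the EV types. Its levels were 94.2, 97.8 and 95.5 FPKM in residual medium, 60.0, 70.4 and 61.6 with PANC-1 EVs and 81.1, 77.6 and 70.2 with PPCL-68 EVs, so it fell least with PPCL-68 EVs (-0.33) and more with PANC-1 EVs (-0.58). The securin gene PTTG1 fell with both, from 86.4, 84.3 and 82.4 FPKM to 57.1, 60.2 and 58.6 with PANC-1 EVs and 50.7, 50.7 and 46.2 with PPCL-68 EVs.

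The kinesin motors held the steepest falls with PANC-1 EVs and 2 of the 4 members not called there. KIF20A (chr5:137514408-137523404 in hg19), which carries the passenger complex to the midzone at cytokinesis, stood at 26.2, 29.3 and 29.0 FPKM in residual medium, 10.8, 11.0 and 11.2 with PANC-1 EVs and 10.8, 9.83 and 9.89 with PPCL-68 EVs. Its differences were -1.28 ± 0.05 SE, adjusted p = 7.9e-11, the largest fall with PANC-1 EVs, and -1.38 ± 0.05 SE, adjusted p = 2.4e-11. KIF20A overlaps CDC23 in the annotation, and the library kit kept no strand, so reads of the shared part could come from either gene. KIFC1, a minus-end motor that clusters spindle poles, was next with PANC-1 EVs: 30.1, 29.4 and 29.4 FPKM in residual medium, 11.8, 11.98 and 11.5 with PANC-1 EVs and 12.2, 12.6 and 11.7 with PPCL-68 EVs. KIF14, a cytokinesis motor, was not called with PANC-1 EVs (12.4, 11.7 and 11.7 FPKM against 12.1, 13.1 and 13.3 in residual medium; -0.10, adjusted p = 0.10 by limma), yet fell with PPCL-68 EVs to 6.15, 6.40 and 6.52. KIF18A, a motor that dampens chromosome movement, was likewise not called with PANC-1 EVs (-0.12, adjusted p = 0.14 by limma) and fell with PPCL-68 EVs (-0.55). In total 8 of 10 kinesin genes fell with PANC-1 EVs and 10 of 10 with PPCL-68 EVs. KIF11, the motor that separates the poles, fell with both, from 20.3, 24.3 and 23.4 FPKM to 17.0, 17.3 and 15.9 with PANC-1 EVs and 12.9, 12.98 and 12.3 with PPCL-68 EVs.

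At the centromere and kinetochore, 4 of 5 genes fell with PANC-1 EVs and 5 of 5 with PPCL-68 EVs. NDC80, the microtubule-binding subunit of the outer kinetochore, was the exception with PANC-1 EVs, at 22.2, 23.1 and 20.7 FPKM against 23.1, 24.8 and 25.2 in residual medium (-0.14, adjusted p = 0.069 by limma), and fell with PPCL-68 EVs to 16.5, 14.3 and 14.1. The PANC-1 EV and residual-medium values of NDC80 overlapped. CENPA, the histone variant that marks the centromere, was at 20.9, 22.2 and 21.7 FPKM in residual medium, 13.4, 13.8 and 14.1 with PANC-1 EVs and 7.47, 8.99 and 7.77 with PPCL-68 EVs, 3 levels with no overlap. Both chromosomal passenger genes fell with both EV types: BIRC5 went from 7.46, 6.60 and 6.85 FPKM to 3.85, 4.59 and 4.25 with PANC-1 EVs and 3.71, 3.38 and 2.75 with PPCL-68 EVs. Of the 5 spindle assembly factors HMMR was the one not called with PANC-1 EVs (-0.05, adjusted p = 0.51 by limma). TPX2, the activator of Aurora A, fell from 98.1, 105 and 105 FPKM to 64.3, 73.8 and 64.6 with PANC-1 EVs and 48.4, 43.2 and 41.5 with PPCL-68 EVs. ASPM, a spindle pole protein, was at 9.84, 10.7 and 10.9 FPKM in residual medium, 8.51, 6.43 and 7.33 with PANC-1 EVs and 6.62, 6.23 and 6.77 with PPCL-68 EVs, and its 2 EV groups overlapped. All 4 cytokinesis genes fell with both EV types. ANLN, encoding the contractile ring scaffold anillin, went from 58.9, 66.2 and 60.3 FPKM to 32.6, 29.9 and 30.5 with PANC-1 EVs and 23.6, 22.4 and 23.6 with PPCL-68 EVs, with no overlap among the 3 groups.

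The 2 transcription factors fell as well, and MYBL2 separated the EV types most on the log2(FPKM + 1) scale. In the ratio of mean FPKM between the EV types KIF14 was first, at 1.87-fold. FOXM1 was at 38.5, 37.3 and 37.6 FPKM in residual medium, 27.3, 27.2 and 27.2 with PANC-1 EVs and 20.1, 19.7 and 20.3 with PPCL-68 EVs. MYBL2 was at 141, 138 and 137 FPKM in residual medium, 97.5, 107 and 95.4 with PANC-1 EVs and 60.2, 52.9 and 47.9 with PPCL-68 EVs. Neither gene's groups overlapped. Compared directly in HPDE, PANC-1 EV libraries exceeded PPCL-68 EV libraries in 34 of the 47 members and were lower in 2, UBE2C (-0.25 ± 0.06 SE, adjusted p = 0.0047) and CDCA8, a passenger subunit (-0.15 ± 0.05 SE, adjusted p = 0.025), both by limma. Of all genes, 50.1% were called, 25.2% as higher and 24.9% as lower with PANC-1 EVs. The median member difference was 0.25, and the largest were in MYBL2 (0.89 ± 0.07 SE, adjusted p = 1.4e-07) and KIF14 (0.81 ± 0.05 SE, adjusted p = 1.7e-08). The 11 members not called were CCNB2, CDC25C, PLK1, BUB1B, KIF20A, KIFC1, KIF4A, KIF18B, CENPE, NUF2 and ASPM, with differences from -0.07 (BUB1B) to 0.17 (CDC25C). KIF20A and KIFC1, which fell far with each EV type, were thus not shown to differ between the types.

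**Figure D2:**
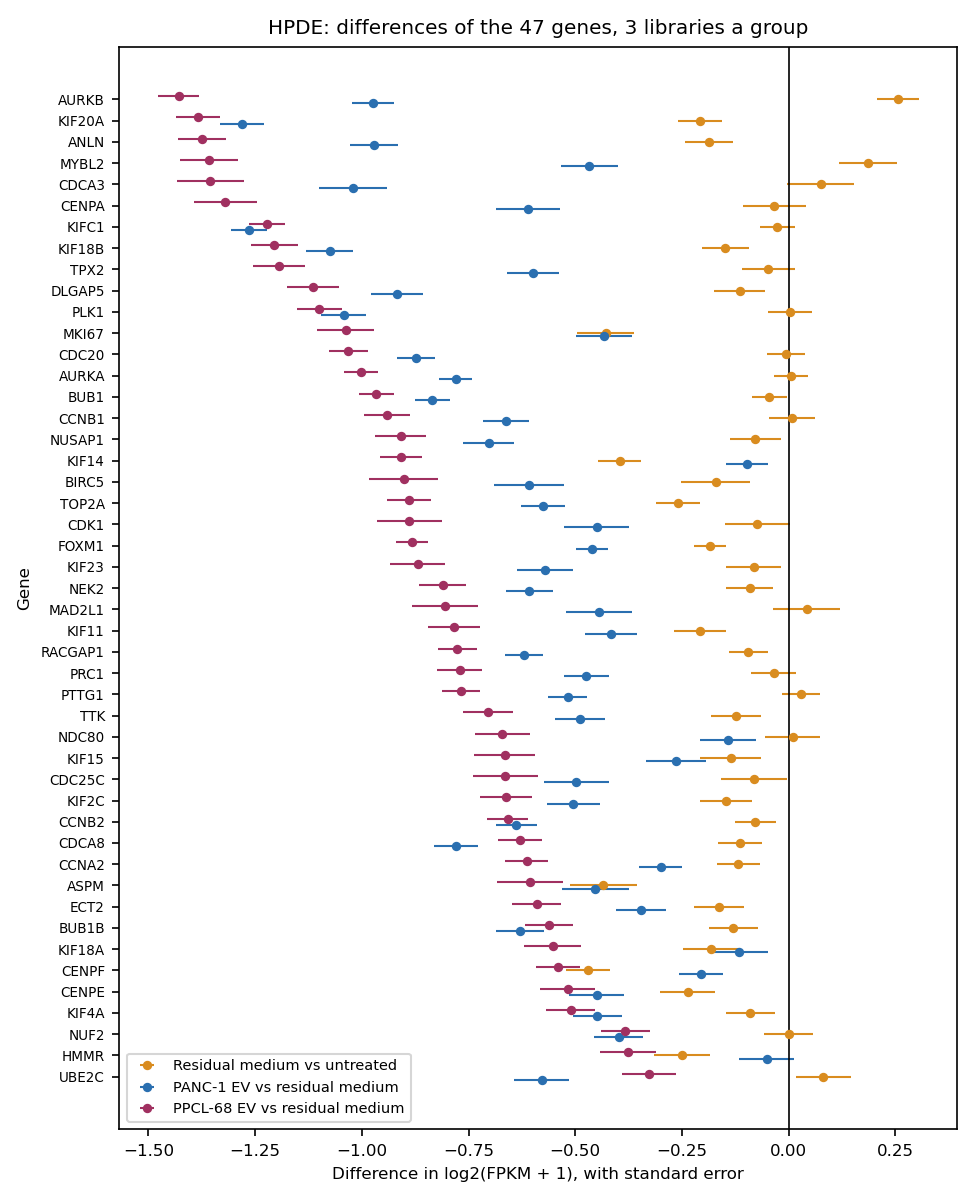
Log2 difference, with its standard error from limma, for each of the 47 members in HPDE cells, in log2(FPKM + 1) units. Shown are PANC-1 EVs and PPCL-68 EVs, each against residual medium, and residual medium against untreated cells. All PPCL-68 EV points lie below 0, from -1.43 (AURKB) to -0.33 (UBE2C), and the PANC-1 EV points reach from -1.28 (KIF20A) to -0.05 (HMMR).

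Against untreated HPDE cells, PANC-1 EV libraries were lower in 46 of 47 members (60.6% of all genes called, 34.4% lower; NDC80 was not called, at -0.13 with an adjusted p of 0.090 by limma). PPCL-68 EV libraries were lower in 47 of 47 (66.3% called, 36.1% lower). The medians were -0.65 and -0.96. KIF20A had the largest fall in each, at -1.49 and -1.59, followed by KIFC1 with PANC-1 EVs (-1.29) and ANLN with PPCL-68 EVs (-1.56).

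Residual medium without added EVs went with smaller changes in HPDE. Against untreated cells 11 of the 47 members were lower and 1 was higher by limma, where 20.0% of all genes were called, 10.1% lower and 9.93% higher, and the median member difference was -0.09. The gene that rose was AURKB, from 54.1, 51.3 and 54.8 FPKM untreated to 66.1, 61.3 and 64.5 (0.26 ± 0.05 SE, adjusted p = 0.0026, limma). The genes that fell were MKI67, TOP2A, KIF20A, KIF11, KIF14, CENPE, CENPF, HMMR, ASPM, ANLN and FOXM1. CENPF, a very large protein of the outer kinetochore, changed most, from 22.5, 21.7 and 21.6 FPKM to 14.8, 15.4 and 16.5 (-0.47 ± 0.05 SE, adjusted p = 2.1e-05, limma). ASPM went from 15.5, 14.2 and 13.8 FPKM to 9.84, 10.7 and 10.9, and MKI67 from 37.7, 36.3 and 37.6 to 26.3, 26.5 and 29.4. In each of the 12 members called, the 2 groups did not overlap; over all 47 members the residual-medium libraries lay below the untreated ones in 25 and above in 2, against 21.7% and 18.3% of all genes. KIF14, not called between PANC-1 EVs and residual medium, was at 17.5, 16.7 and 17.4 FPKM untreated, 12.1, 13.1 and 13.3 in residual medium and 12.4, 11.7 and 11.7 with PANC-1 EVs. Without untreated replicate 1, or without residual medium replicate 1, 7 members were called in place of 12.

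In HPNE cells the residual-medium libraries split. Replicates 1 and 2 held 24.8 and 24.6 FPKM as the median of the 47 members and replicate 3 held 6.23, while the untreated libraries held 3.40, 3.28 and 7.75, the PANC-1 EV libraries 4.61, 5.97 and 5.30 and the PPCL-68 EV libraries 2.52, 4.21 and 4.07. Replicate 3 was the lowest of its group in 47 of 47 members, and the mean of the other 2 exceeded it 3.95-fold at the median member (2.74- to 5.20-fold over the members). Replicates 1 and 2 each lay above all 3 untreated libraries in 47 of 47. Replicate 3 lay above all 3 untreated libraries in 3 members (AURKB, CENPA and MYBL2). It lay above untreated replicates 1 and 2 in all 47, at a median of 1.81- and 1.88-fold, and below untreated replicate 3 in 44. Untreated replicate 3 was in turn the highest of its group in 47 of 47, at 2.26-fold the mean of the other 2 at the median member. Over all genes, the root mean square log2 distance of residual medium replicate 3 was 0.3601 from the mean of the PANC-1 EV libraries, 0.447 from that of the PPCL-68 EV libraries, 0.453 from that of the other 2 residual-medium libraries and 0.495 from that of the untreated libraries. Chemokine genes outside the list, IL8, CXCL1 and CXCL5, are given as further values and were chosen after their values were seen. IL8 was at 2.31, 2.64 and 4.70 FPKM in untreated cells, 1799, 1818 and 859 in residual medium and 1109, 1658 and 1461 with PANC-1 EVs. CXCL5 was at 0.967, 0.553 and 0.722 FPKM in untreated cells, 183, 163 and 61.5 in residual medium and 27.3, 38.1 and 34.2 with PANC-1 EVs. For IL8 and CXCL5, residual medium replicate 3 lay above the untreated libraries and below the other 2 of its group. CXCL1 was at 0.736, 0.785 and 0.811 FPKM in untreated cells, 177, 138 and 243 in residual medium and 183, 199 and 146 with PANC-1 EVs. Its residual medium replicate 3 thus lay above the other 2 of its group, and the chemokine genes did not place that library alike.

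The split ran through every role. MKI67 was at 20.6, 20.1 and 3.91 FPKM in residual medium replicates 1, 2 and 3 and at 1.85, 1.96 and 6.78 in the untreated ones. TOP2A, the most abundant member here, was at 81.5, 80.2 and 21.7 against 11.3, 12.2 and 28.8 FPKM. CCNB1 was at 60.2, 62.8 and 14.9 against 10.7, 10.1 and 18.0 FPKM. In each of these genes replicates 1 and 2 stood high and replicate 3 fell inside the untreated range. CDC20 was at 70.7, 70.3 and 19.0 FPKM in residual medium against 9.66, 9.03 and 21.3 untreated. BUB1 was at 25.7, 24.6 and 5.48 against 3.14, 2.64 and 7.43 FPKM. NDC80 was at 24.4, 23.7 and 5.74 against 3.40, 3.23 and 6.96 FPKM. AURKB differed in that its replicate 3 also cleared the untreated libraries, by a small margin: 36.1, 34.6 and 8.58 against 3.41, 4.67 and 7.75 FPKM.

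**Figure D3:**
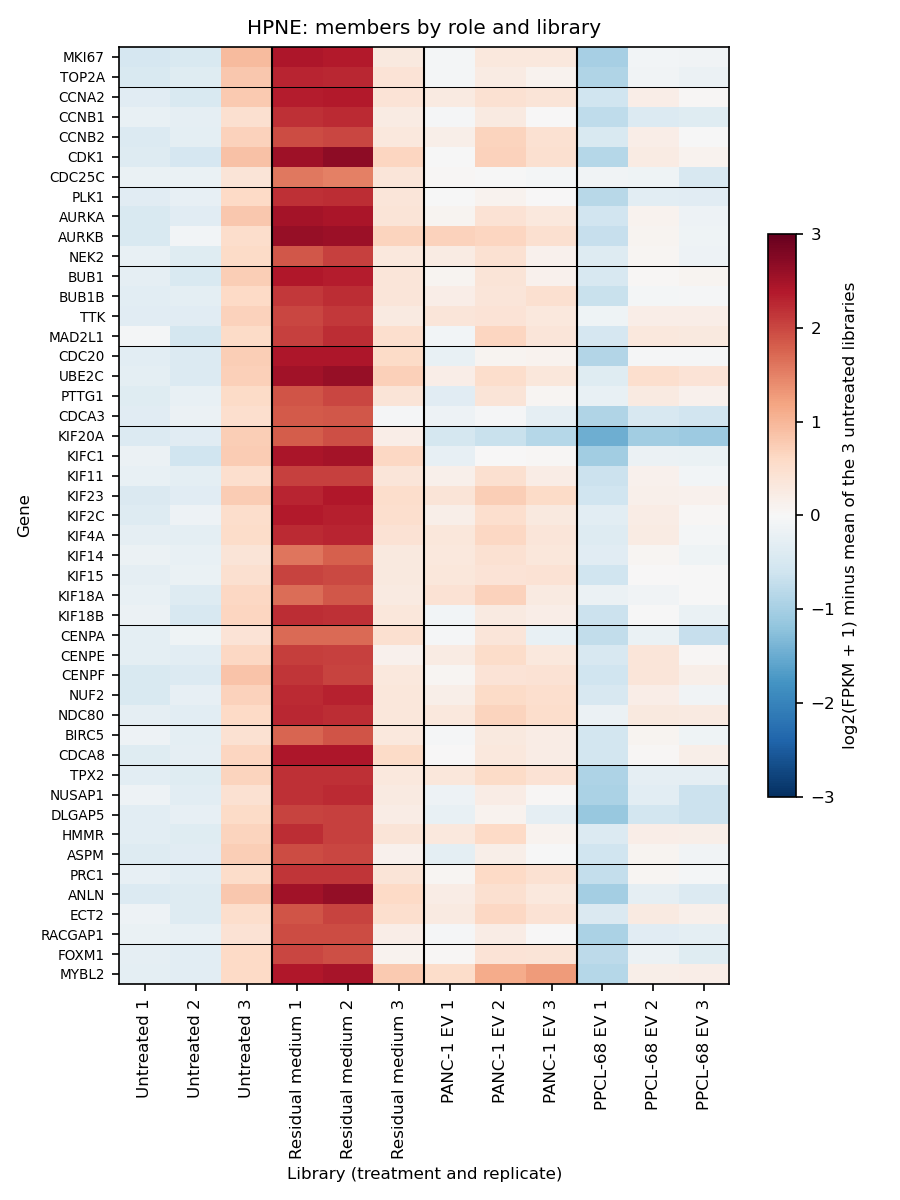
Difference of each member's log2(FPKM + 1) from its mean over the 3 untreated HPNE libraries, with 1 line per member and 1 column per HPNE library, grouped by treatment. The columns of residual medium replicates 1 and 2 stand out over all 47 members, whereas replicate 3 lies between untreated replicates 1 and 2 and untreated replicate 3 in 44 members.

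By limma on all 12 HPNE libraries, 47 of 47 members were higher in residual medium than in untreated cells, with a median of 1.56, where 43.9% of all genes were called and 18.7% were higher. The groups did not overlap in 3 members, however, against 19.0% of all genes. The largest differences were in CDK1 (1.96 ± 0.53 SE, adjusted p = 0.014) and AURKB (1.95 ± 0.45 SE, adjusted p = 0.0063). CDK1 was at 52.7, 58.3 and 13.4 FPKM in residual medium against 6.07, 5.54 and 15.9 untreated, so its groups overlapped through replicate 3 of each. The count moved with the libraries fitted. Fitting the 6 libraries compared left 13 members, and the fit without untreated replicate 1 left 14; 13 remained without untreated replicate 2, without residual medium replicate 1 or without residual medium replicate 2. Leaving out residual medium replicate 3 kept 47 with a median of 2.17 and adjusted p of 5.7e-05 to 0.0014 by limma. Leaving out the 4 libraries that lay apart kept 47 with a median of 2.47. These libraries were picked from these same values, and leaving them out narrows the spread within groups. Both counts, given with no share over all genes, are thus not read as a result about the members. Other measures moved between the same groups. Mitochondrial transcripts made up 2.21, 2.63 and 1.13% of reads in the untreated libraries and 0.982, 0.879 and 0.746% in residual medium, and the 6 mesenchymal markers summed to 14430, 14209 and 12976 FPKM untreated and to 9730, 9579 and 13504 in residual medium. Their part in the result was not tested.

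Against this divided control, 47 of 47 members were lower with PPCL-68 EVs in HPNE, with a median of -1.83; 39.9% of all genes were called and 19.7% were lower. Groups did not overlap in 45 members, against 22.0% of all genes, the exceptions being CENPE and CENPF. KIF20A was at 22.5, 24.9 and 6.68 FPKM in residual medium and 1.45, 2.26 and 2.15 with PPCL-68 EVs (-2.51 ± 0.42 SE, adjusted p = 0.0011). ANLN was at 63.9, 68.7 and 16.0 and 4.54, 8.31 and 7.54 FPKM (-2.48 ± 0.49 SE, adjusted p = 0.0028). In both genes every PPCL-68 EV library was below residual medium replicate 3 as well. Without that replicate 47 members were called with a median of -2.40, and without the 4 libraries that lay apart 47 with a median of -2.22. Both fits leave out libraries picked from these same values, so their counts are not read as support. Other alternatives lowered the count, to 32 at the lowest when 1 library was left out. With the replicate block in the 6 libraries compared, adjusted p ran from 0.027 to 0.091 by limma, so not every member was called.

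With PANC-1 EVs 23 of 47 members were lower than in residual medium in HPNE, with a median of -1.28, where 24.2% of all genes were called and 10.3% were lower. Groups did not overlap in 15 members, against 14.8% of all genes. KIF20A was again first, at 3.67, 3.25 and 2.71 FPKM (-2.00 ± 0.42 SE, adjusted p = 0.0074), followed by KIFC1, at 3.85, 4.86 and 4.89 against 30.6, 31.6 and 7.86 FPKM (-1.92 ± 0.48 SE, adjusted p = 0.016). Every PANC-1 EV value of KIF20A and KIFC1 was below residual medium replicate 3. All 4 genes of the CDC20 group (CDC20, UBE2C, PTTG1 and CDCA3) were called, as were 3 of the 4 mitotic kinases, whereas neither FOXM1 (-1.07, adjusted p = 0.090 by limma) nor MYBL2 (-0.91, adjusted p = 0.16 by limma) was. MYBL2 stood at 4.998, 7.78 and 8.88 FPKM with PANC-1 EVs against 20.7, 21.6 and 5.99 in residual medium, so the 2 groups overlapped through replicate 3. Without that replicate, or without the 4 libraries that lay apart, 47 members were called; 1 was called without residual medium replicate 1 or without residual medium replicate 2, and 4, 7 and 4 without PANC-1 EV replicate 1, 2 or 3. Residual medium replicate 3 itself lay above all 3 PANC-1 EV libraries in 15 members and below all 3 in 6. The counts with libraries left out are given with no share over all genes, as a dependence on the libraries.

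Against untreated HPNE cells few members were called with EVs. Called or not, 40 differences were above 0 and 7 below with PANC-1 EVs, and 6 were above and 41 below with PPCL-68 EVs. These sign counts have no share over all genes beside them and are not read as a difference between the EV types. The median with PPCL-68 EVs, -0.20, turned above 0 without untreated replicate 3. With PANC-1 EVs limma called 0 of 47 members (0 at an unadjusted p under 0.05, 0 by limma voom on the recovered reads), where 21.1% of all genes were called and 36.5% had an unadjusted p under 0.05. Differences ran from -0.68 (KIF20A) to 0.98 (MYBL2), with a median of 0.30, and the groups did not overlap in 1 member, against 23.6% of all genes lower without overlap. With PPCL-68 EVs, where 42.5% of all genes were called, KIF20A was called alone by limma (-1.20 ± 0.42 SE, adjusted p = 0.038), and the median was -0.20. KIF20A stood at 4.07, 4.35 and 10.2 FPKM untreated, 3.67, 3.25 and 2.71 with PANC-1 EVs and 1.45, 2.26 and 2.15 with PPCL-68 EVs, so all 6 EV libraries lay below all 3 untreated libraries. That call was lost without untreated replicate 2, untreated replicate 3 or any 1 of the PPCL-68 EV libraries, and by limma voom. Besides KIF20A, the PPCL-68 EV libraries lay below all untreated libraries in CCNB1, CDCA3, NUSAP1, DLGAP5 and RACGAP1, 6 of 47 members in all, against 30.4% of all genes. The libraries that lay apart weighed on both comparisons. Without those 4, 42 members were higher and 1 lower with PANC-1 EVs than untreated. With PPCL-68 EVs 28 were higher and 3 lower, at a median of 0.28. Those 4 libraries were picked from these same values, and leaving them out narrows the spread within each group. The counts without them, given with no share over all genes, are thus not read as a result about the members.

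The fit of 12 libraries did not separate the 2 EV types in HPNE. PANC-1 EV libraries were called higher than PPCL-68 EV libraries in 0 of 47 members by limma (1 at an unadjusted p under 0.05, 0 by limma voom), where 5.47% of all genes were called (3.22% higher and 2.25% lower) and 23.3% had an unadjusted p under 0.05. The median difference was 0.50. The groups did not overlap in 27 members, against 15.1% of all genes. Same-numbered libraries of these 2 groups deviated together, and a replicate block in the fit of 12 libraries again left 0, whereas the fit of these 6 libraries with the block called 31, all higher with PANC-1 EVs. Without the 4 libraries that lay apart, 30 were called. The block within the 6 libraries was chosen after seeing the data, and the 4 libraries were picked from these same values. Both counts, given with no share over all genes, are thus not read as a result about the members. MYBL2 had the largest difference, at 4.998, 7.78 and 8.88 FPKM with PANC-1 EVs against 1.26, 3.59 and 3.67 with PPCL-68 EVs, and each numbered pair was higher with PANC-1 EVs. MYBL2 thus had the largest fitted difference between EV types of all members in both lines.

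**Figure D4:**
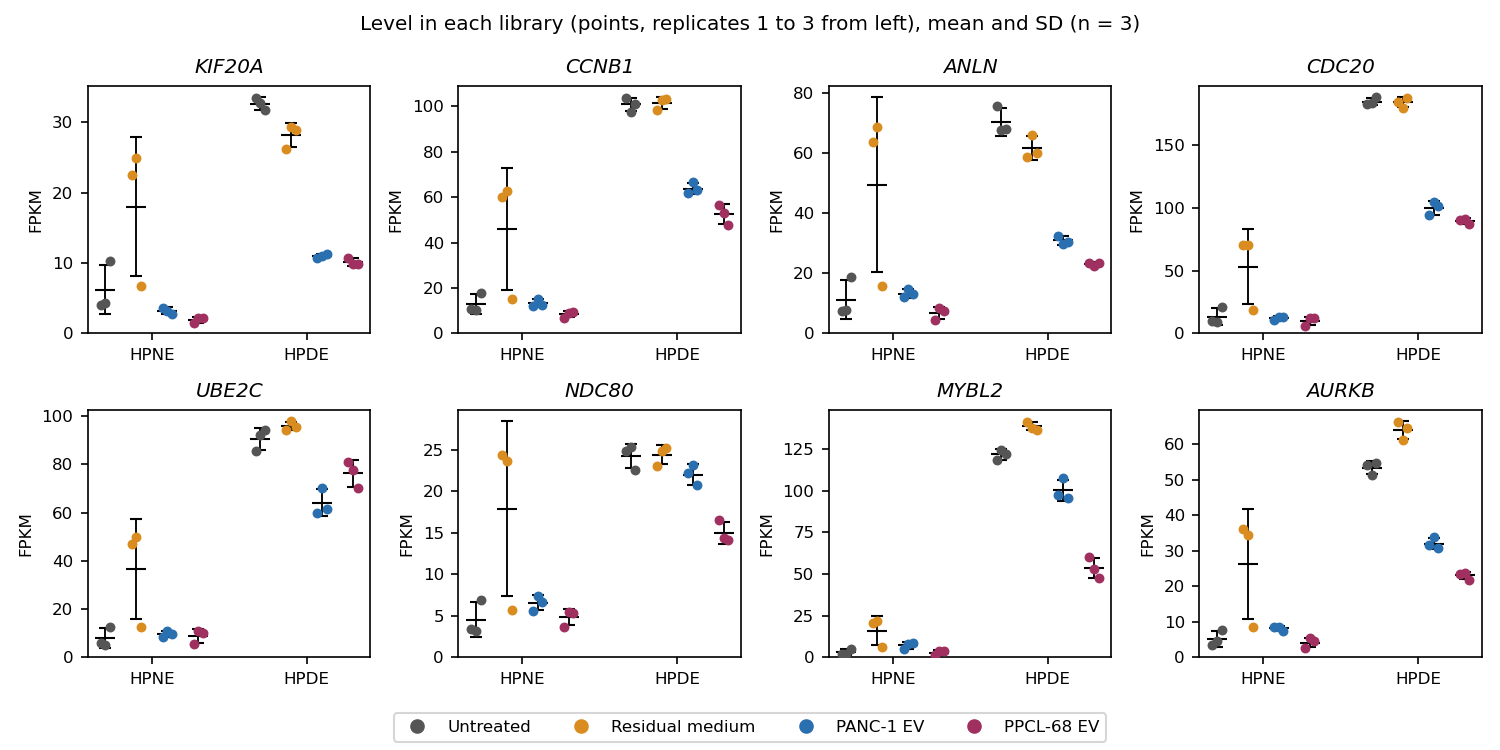
FPKM of 8 members in each library by line and treatment, with a point per library and a bar at the group mean. In HPDE the points of a group lie close together, while in HPNE residual medium each gene has 2 points far above the third.

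The difference in response between the lines was tested as an interaction in 1 fit of all 24 libraries. For residual medium against untreated cells, 46 of 47 members had a lower response in HPDE than in HPNE by limma, with a median interaction of -1.64, where 38.1% of all genes were called and 17.1% were lower. CDCA3, whose product promotes mitotic entry, was not called. For PANC-1 EVs against residual medium the lines were not shown to differ in any member: limma called 0 of 47 (3 at an unadjusted p under 0.05, 0 by limma voom), where 21.2% of all genes were called and 35.4% had an unadjusted p under 0.05. For PPCL-68 EVs against residual medium 3 members had a smaller fall in HPDE (UBE2C, NUSAP1 and BUB1B), where 25.7% of all genes were called. Without HPNE residual medium replicate 3, all 47 members were called in each of these 2 contrasts, with the smaller fall in HPDE. Leaving out other single libraries gave as few as 0 members in each. Against untreated cells the EV response was lower in HPDE for ANLN and KIF18B with PANC-1 EVs (23.2% of all genes called) and for KIF14 with PPCL-68 EVs (40.6%). Without HPNE untreated replicate 3, these became 26 and 16 members. Residual medium replicate 3 and untreated replicate 3 of HPNE stand apart in the members' own values. The counts without them, given with no share over all genes, are thus not read as a result about the members.

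The other genes of the cell cycle, in lists drawn up by name, were examined beside the members. Of 42 further mitotic genes, 38 fell with PANC-1 EVs and 41 with PPCL-68 EVs against residual medium in HPDE, at medians of -0.51 and -0.84. INCENP, the scaffold of the passenger complex, was at 27.1, 26.1 and 26.2 FPKM in residual medium and 9.61, 9.80 and 9.95 with PANC-1 EVs (-1.35), with no overlap. CDC25B, a phosphatase that activates CDK1, was the 1 gene of this list that rose with each EV type, by 0.23 and 0.26. All 16 S-phase genes fell with each EV type, at medians of -0.58 and -1.07. RRM2, which supplies deoxynucleotides, was at 95.4, 109 and 105 FPKM in residual medium and 29.4, 27.4 and 27.6 with PPCL-68 EVs. CDC45, part of the replicative helicase, was at 32.7, 31.8 and 32.7 and 8.47, 8.19 and 8.86 FPKM. The lower levels in HPDE thus extended to genes of DNA replication.

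The lists on the spindle's parts in HPDE are read beside all genes tested, of which 35.1% fell and 28.2% rose with PANC-1 EVs, and 36.4% fell and 31.3% rose with PPCL-68 EVs. All 8 alpha and beta tubulin genes tested (of 10 listed) fell with each EV type, at medians of -0.87 and -0.80. TUBB6 went from 377, 335 and 350.3 FPKM to 150.3, 166 and 155 with PANC-1 EVs and 154, 164 and 152 with PPCL-68 EVs. Tubulin genes are close in sequence, and how reads of near copies were assigned is not stated, so single tubulin values are uncertain. Of 24 other kinetochore genes tested (of 25 listed), 13 fell and 2 rose with PANC-1 EVs, and 22 fell and 1 rose with PPCL-68 EVs. SPC24, which joins the NDC80 complex to the inner kinetochore, was at 14.2, 14.3 and 14.2 FPKM in residual medium, 6.39, 7.29 and 5.73 with PANC-1 EVs and 3.80, 4.18 and 4.04 with PPCL-68 EVs. Of the 17 condensin and cohesin genes, 8 fell and 6 rose with PANC-1 EVs, and 12 fell and 5 rose with PPCL-68 EVs. NCAPH, a condensin subunit, changed by -0.98 and -1.49, while the genes that rose were subunits or regulators of cohesin, such as STAG1 (0.39 and 0.16) and the loader NIPBL (0.45 and 0.36). Of 14 core genes of the anaphase-promoting complex, 7 fell and 2 rose with PANC-1 EVs, and 8 fell and 5 rose with PPCL-68 EVs, at medians of -0.11 and -0.19. Both directions occurred in the anaphase-promoting complex core and in condensin and cohesin, as over all genes, and these counts are not read as a result about either list.

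Of 16 MuvB, DREAM and E2F genes tested (of 17 listed), 6 fell and 4 rose with PANC-1 EVs, and 8 fell and 3 rose with PPCL-68 EVs. Over all genes 35.1% fell and 28.2% rose with PANC-1 EVs, and 36.4% and 31.3% with PPCL-68 EVs, so calls in both directions among the regulators and the CDK inhibitors are not read as a result about either list, and the genes named are given for their own values. E2F1, an activator of S-phase genes, fell from 38.7, 31.1 and 33.3 FPKM to 17.3, 17.9 and 19.6 with PANC-1 EVs and 10.8, 13.5 and 10.9 with PPCL-68 EVs, whereas E2F7, a repressor of the same family, rose from 15.2, 15.1 and 15.2 FPKM to 45.9, 42.7 and 42.4 with PANC-1 EVs and 35.2, 37.4 and 36.7 with PPCL-68 EVs. Of the 7 CDK inhibitor genes, 3 rose and 3 fell with PANC-1 EVs, and 3 rose and 2 fell with PPCL-68 EVs. CDKN1A, encoding p21, was at 77.7, 72.7 and 74.6 FPKM in residual medium, 116, 119 and 116 with PANC-1 EVs and 126, 133 and 139 with PPCL-68 EVs. CDKN1C, encoding p57, was at 1.97, 1.43 and 2.09 FPKM in residual medium, 2.69, 3.36 and 3.01 with PANC-1 EVs and 6.39, 6.89 and 7.14 with PPCL-68 EVs. CDKN2C, encoding p18, went the other way, from 3.42, 3.74 and 3.90 FPKM to 1.39, 1.57 and 1.34 with PANC-1 EVs and 1.31, 1.07 and 1.08 with PPCL-68 EVs.

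In HPNE residual medium the lists are read beside the 18.7% of all genes that were higher than in untreated cells and the 25.2% that were lower. Against untreated cells 40 of the 42 further mitotic genes rose and 1 fell (CDC25B, -1.05), at a median of 1.28. Of 15 S-phase genes tested 13 rose, at a median of 1.28, and all 8 tubulin genes tested rose, at 1.39. RRM2 was at 84.5, 86.1 and 18.7 FPKM in residual medium against 6.18, 5.49 and 15.0 untreated, with replicate 3 again below the others. Of the 7 CDK inhibitors 5 fell and 1 rose. CDKN2B, encoding p15, was at 13.9, 14.3 and 18.9 FPKM untreated and 4.40, 3.78 and 6.10 in residual medium, a difference that residual medium replicate 3 shared. The anaphase-promoting complex core had 3 of 14 genes higher and 1 lower, near the share over all genes for those higher. With EVs against residual medium in HPNE, 25 of the 42 further mitotic genes fell with PANC-1 EVs and 40 with PPCL-68 EVs, and of the 15 S-phase genes 8 and 14 fell, where 10.3% and 19.7% of all genes fell.

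**Figure D5:**
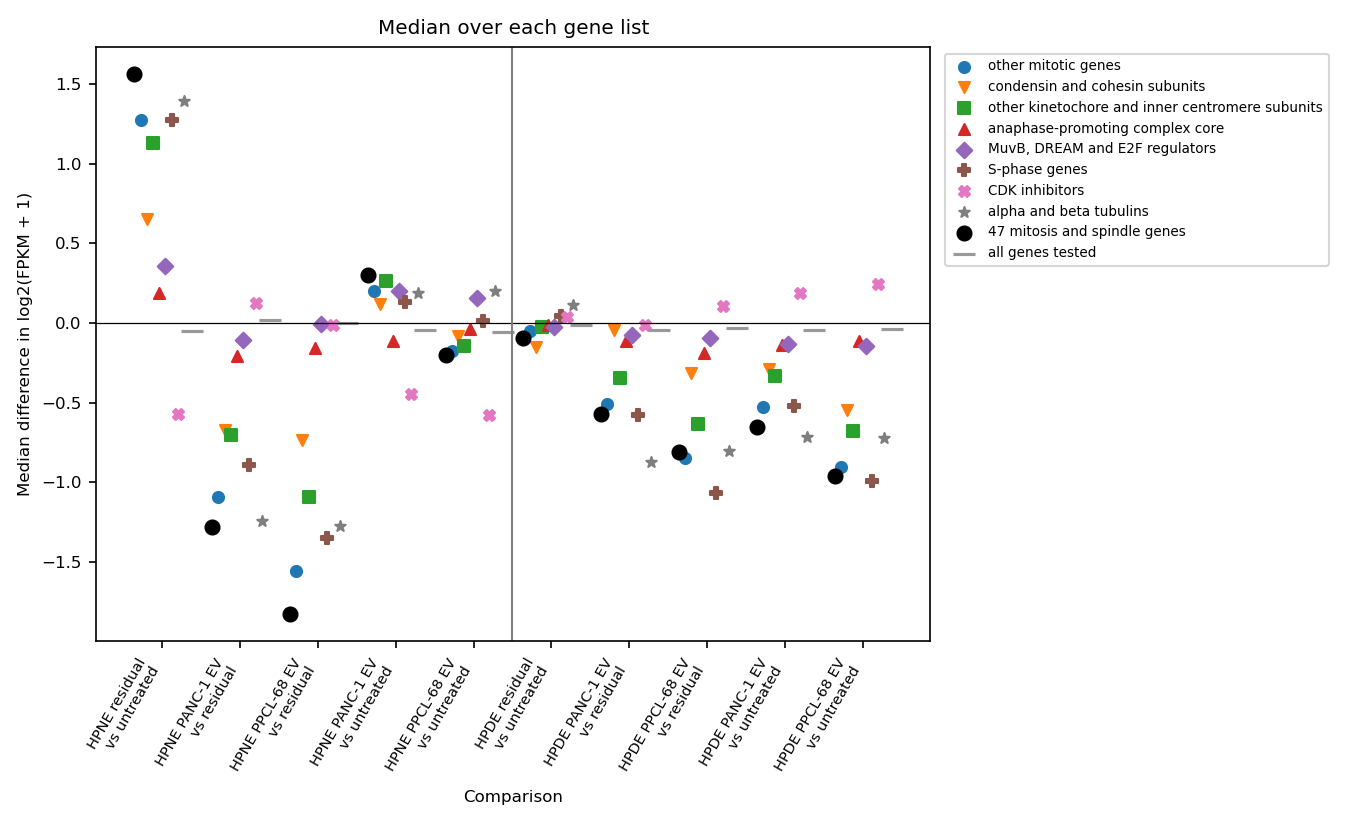
Median log2 difference of the members and of each cell cycle list in each line for the EV and residual-medium comparisons, in log2(FPKM + 1) units, with the median of all genes tested as reference. The S-phase genes, tubulins and further mitotic genes lie on the same side as the 47 members in HPDE with EVs and in HPNE residual medium.

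Single members carry limits from the assay. Because the kit kept no strand, the 11 members whose gene body overlaps another gene with a mean of at least 1 FPKM (CCNA2, CDC25C, BUB1B, CDCA3, KIF20A, KIF4A, KIF15, KIF18A, CENPA, ANLN and FOXM1) can share reads with it. KIF4A and PTTG1 have near copies, but KIF4B was at most 0.0242 FPKM and PTTG2 at 0 in every library.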

How the data were processed

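The data are RNA-seq of 24 libraries in 8 groups of 3. The authors deposited 1 table per library with an FPKM value, gene length, symbol and position for each of 48162 genes, per the file headers. Per the submitters' processing notes, CASAVA, STAR, HTSeq and DESeq2 were named with build hg19, without versions or roles. The kit was non-directional, per the labels' protocols. FPKM times gene length gave whole reads for 100% of values in every library, so reads per library were recovered. Counting limits cover counting error only, since amplified reads are not independent molecules, and an FPKM is relative to the total of its library.

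The members and lists were chosen with earlier results of these data known, and the members' names were given at the outset. Any member may be named; values in every library were given for role representatives, for the 2 members with the largest difference in each comparison and for those called against the majority, and from each list for up to 2 genes with the largest difference. The titles of the samples gave group and replicate number. The test was limma 3.58.1 (R 4.3.3), with a mean-variance trend in eBayes, two-sided, fitted to log2(FPKM + 1) for genes with a mean of at least 1 FPKM, with the 12 libraries of a line in 1 fit (8 residual degrees of freedom) or all 24 for comparisons between lines. Calls needed a Benjamini-Hochberg adjusted p under 0.05 over all genes tested. Differences on this scale understate changes of low genes. All 47 members passed the filter in each line. All 148 list genes and 25 of 26 marker genes were found; 3 list symbols had 2 entries, of which the one with the higher mean was used.

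The fit was tested on simulated reads with known changes. For PANC-1 EVs against residual medium, it called 70% of 200 genes with a 2-fold change in HPNE and 96% in HPDE. Of the unchanged genes, 6 and 9 were called. Simulated libraries varied independently, unlike the HPNE libraries that lay apart, so the recovery for the members in HPNE is not known. Alternatives were a pseudocount of 0.1, no filter, median-of-ratios size factors, the replicate number as a block, limma voom on the recovered reads, only the 6 libraries compared, leaving out the 4 HPNE libraries that lay apart, and leaving out each library; the block within the 6 libraries was chosen after seeing the data. Replicate numbers were taken to pair libraries where all 3 correlations of same-numbered deviations passed 0.1. This held for the 2 EV groups in HPNE (0.565, 0.292 and 0.500) and for no other comparison. The 4 HPNE libraries that lay apart were picked from these same values. Leaving them out leaves 2 libraries in each HPNE group and narrows the spread. Counts from that fit are therefore given as a dependence on the libraries and not as support. The same holds for fits without HPNE residual medium replicate 3 or HPNE untreated replicate 3. No 2 libraries held identical values.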

Additional observations from a re-analysis of the deposited data

Results flagged for a closer look

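Differences between the cell lines in the same contrast, tested as an interaction in limma over all 24 libraries, marked the following results. For residual medium against untreated cells, 46 of 47 members differed, where 38.1% of all genes were called. MKI67 (-2.13 log2, HPDE minus HPNE) and ANLN (-2.10) led. MKI67 was higher in residual medium in 2 of 3 HPNE libraries than in any untreated HPNE library and lower in 3 of 3 HPDE libraries than in any untreated HPDE library. For PPCL-68 EVs against residual medium 3 members differed, led by UBE2C (1.44) and NUSAP1 (1.29), where 25.7% of all genes were called. For PANC-1 EVs against untreated cells 2 differed, ANLN (-1.49) and KIF18B (-1.35), where 23.2% of all genes were called. For PPCL-68 EVs against untreated cells 1 differed, KIF14 (-1.17), where 40.6% of all genes were called. The member counts in these EV contrasts lie below the share over all genes and are not read as a result about the members. All of these include HPNE libraries that lay apart from their group, and the part of those libraries in the differences was examined by leaving them out, as given with the results.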

How the results depend on the processing

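Counts of members called are out of 47. In HPDE no alternative moved an EV count by over 1.5 times: leaving out 1 library gave 43 to 45 for PANC-1 EVs and 47 for PPCL-68 EVs against residual medium, 46 to 47 and 47 against untreated cells, and 34 to 37 between EV types. Residual medium against untreated HPDE gave 7 to 13, with 7 without untreated replicate 1 or residual medium replicate 1. Untreated HPDE against HPNE kept 47 throughout.

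HPNE counts depended on the fit. Residual medium against untreated cells gave 13 with only the 6 libraries compared, 0 with the replicate block in those 6, and 13 to 47 when leaving out 1 library. PANC-1 EVs against residual medium (23) gave 2 without the filter, 12 with the replicate block, 2 in the 6 libraries, 0 with the block in the 6, 47 without the 4 libraries that lay apart, and 1 to 47 when leaving out 1 library. PPCL-68 EVs against residual medium gave 9 with the block in the 6 and 32 to 47 when leaving out 1. PANC-1 EVs against untreated cells (0) gave 1 with the block in the 6, 43 without the 4 libraries, and 0 when leaving out any 1. PPCL-68 EVs against untreated cells (1) gave 0 without the filter, with the replicate block and by voom, 7 with the block in the 6, 31 without the 4 libraries, and 0 to 1 when leaving out 1; 0 came without untreated replicate 2 or 3 or any PPCL-68 EV library. Its median (-0.20) changed sign to 0.28 without the 4 libraries; leaving out 1 library gave -0.34 (without untreated replicate 2) to 0.076 (without untreated replicate 3). Between EV types (0), 1 was called in the 6 libraries, 31 with the block in the 6, 30 without the 4, and 0 when leaving out any 1.

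Of the interactions, residual medium against untreated cells gave 44 to 47 when leaving out 1 library. PANC-1 EVs against residual medium (0) gave 47 without the 4 libraries and 0 to 47 when leaving out 1, with 47 without HPNE residual medium replicate 3. PPCL-68 EVs against residual medium (3) gave 6 with a pseudocount of 0.1, 0 without the filter, 9 with size factors, 0 with the replicate block, 7 by voom and 47 without the 4; leaving out 1 gave 0 to 47, with 47 without HPNE residual medium replicate 3 and 0 without HPNE residual medium replicate 1 or 2, HPNE PPCL-68 EV replicate 1 or any HPDE library of the contrast. PANC-1 EVs against untreated cells (2) gave 0 with a pseudocount of 0.1, without the filter, with the replicate block and by voom, 47 without the 4, and 0 to 26 when leaving out 1: 26 without HPNE untreated replicate 3, and 0 without HPNE untreated replicate 1 or 2, HPNE PANC-1 EV replicate 2 or 3 or any HPDE library of the contrast. PPCL-68 EVs against untreated cells (1) gave 0 by voom, 47 without the 4, and 1 to 16 when leaving out 1, with 16 without HPNE untreated replicate 3 and 3 without HPNE PPCL-68 EV replicate 1. The cause of these shifts was not tested. Outside the 2 EV groups of HPNE, the correlations of same-numbered libraries did not all pass 0.1 in any comparison. Whether those libraries were paired is not stated. Where leaving out a library left 2 in a group, the spread was pooled over all groups of the fit. With 3 libraries a group, the wide spread of HPNE members limits what a call can show. Every member had at least 32 reads in every library, and the part of read depth in the calls was not tested.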
